A study of Rattus norvegicus with 2 samples.

Results

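Interleukin receptor genes were followed through the leukocytes of the infarcted rat heart. All gene symbols that begin with Il, a number and r were taken, leaving out Il1r2, Il1rn and Il2ra, and lines of the gene table with the same symbol were added up. The rule found 37 of the 26976 symbols of the matrix. Of these, 25 genes had at least 50 unique molecular identifiers (UMIs, tags that count single captured transcripts) over all barcodes and are described below.

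The cells came from wild-type (wt) rats 7 days after surgery. One sample was labelled MI (myocardial infarction), and the other MI+PUR-hAESC, infarcted hearts given a polyurethane scaffold with human amniotic epithelial stem cells. Left ventricles, with the infarct and its border, were digested with collagenase A and elastase, and cells stained for CD45 were sorted with propidium iodide in the stain and put through 10x Genomics 3′ capture, per the labels' protocols. Neither the rat strain nor the number of animals behind a sample is stated in these sources.

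Each group has 1 sample, and the deposited matrix pools both samples under barcode suffixes 1 and 2, which no source used here ties to a group. Values are therefore given for library 1 and library 2 side by side, there is no replicate and no test, and no difference between the libraries has a treatment direction. Library 1 held 14283 barcodes and 72506643 UMIs, and library 2 held 15666 barcodes and 82802439 UMIs. The libraries shared 71 barcode sequences. Filters left 13334 and 14434 cells, which were gated by 17 marker lists, none of which holds an interleukin receptor gene, and 1020 cells (3.67%) stayed ungated.

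Interleukin receptors are transmembrane proteins that usually work as pairs of chains, one that recognises the cytokine and one that is shared between several cytokines. The class I family, which includes the common gamma chain Il2rg and the gp130-linked receptors, and the IL-10 receptor family signal through Janus kinases and STAT proteins. The IL-1 and IL-18 receptor family signals through TIR domains and Myd88, and the IL-17 receptor family through the adaptor Act1 (Traf3ip2). In an infarcted heart, neutrophils, monocytes, macrophages and lymphocytes enter the wound, and the receptors on each of them set which interleukins they can sense.

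Promoters of 4 receptors with different patterns over the classes are shown first. They belong to Il2rg of all lymphocytes, Il12rb2 of NK and T cells, Il6r of myeloid and B cells, and Il1r1, highest in endothelial cells. Each is 300 bases long, from 250 bases before the annotated start of the gene to 50 after it, and comes from RefSeq on the rat build GRCr8, which may not be the build of the counts. They lie at chrX:70438951-70439250 on the minus strand, chr4:97844888-97845187 on the minus strand (the first of 2 entries for Il12rb2), chr2:177645160-177645459 on the minus strand and chr9:50034133-50034432 on the plus strand. Sequences run 5′ to 3′ along the gene, and capitals mark matches on either strand to GGAAGT (the core of ETS family sites), TTNNGCAA (C/EBP family) or TGTGGTT (RUNX family).
Il2rg: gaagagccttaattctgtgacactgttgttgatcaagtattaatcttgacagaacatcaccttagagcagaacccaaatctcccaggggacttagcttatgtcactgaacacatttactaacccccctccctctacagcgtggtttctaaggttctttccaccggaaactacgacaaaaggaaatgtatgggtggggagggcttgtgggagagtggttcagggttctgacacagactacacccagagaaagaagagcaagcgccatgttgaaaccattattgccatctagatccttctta
Il12rb2: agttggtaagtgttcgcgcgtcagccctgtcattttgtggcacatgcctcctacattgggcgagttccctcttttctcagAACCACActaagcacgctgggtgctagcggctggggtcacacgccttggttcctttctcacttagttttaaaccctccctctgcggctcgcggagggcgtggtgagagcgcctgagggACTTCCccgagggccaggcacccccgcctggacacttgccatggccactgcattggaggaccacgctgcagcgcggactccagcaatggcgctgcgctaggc
Il6r: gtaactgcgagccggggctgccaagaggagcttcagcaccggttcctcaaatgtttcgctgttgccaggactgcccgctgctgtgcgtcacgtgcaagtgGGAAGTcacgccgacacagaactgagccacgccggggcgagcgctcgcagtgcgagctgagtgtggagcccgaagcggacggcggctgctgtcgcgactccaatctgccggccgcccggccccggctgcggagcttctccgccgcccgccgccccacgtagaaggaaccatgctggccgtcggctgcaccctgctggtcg
Il1r1: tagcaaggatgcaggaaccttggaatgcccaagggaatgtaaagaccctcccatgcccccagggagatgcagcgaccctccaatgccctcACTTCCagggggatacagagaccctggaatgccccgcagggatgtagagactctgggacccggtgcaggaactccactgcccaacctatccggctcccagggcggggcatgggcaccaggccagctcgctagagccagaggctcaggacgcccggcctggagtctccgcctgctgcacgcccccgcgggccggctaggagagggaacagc
Among these 4 promoters, that of Il12rb2 had 1 ETS and 1 RUNX match, those of Il6r and Il1r1 had 1 ETS match each, and that of Il2rg had none of the 3 motifs in this window.

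Of the 25 receptors, 20 had a promoter entry, 18 of them a single one. An ETS match was found for 6 receptors, a C/EBP match for 2 (Il23r and Il3ra) and a RUNX match for 2 (Il12rb2 and Il9r). In all 33469 RefSeq promoters of the same length, 22.6% held the ETS motif, 10.6% the C/EBP motif and 5.57% the RUNX motif, and a match describes the letters only. Several of the genes neighbour each other in the annotation. Il1r1, Il1rl2, Il1rl1, Il18r1 and Il18rap form a run of 5 protein-coding genes on chromosome 9, Il4r is next to Il21r on chromosome 1, and Il12rb2 is next to Il23r on chromosome 4. Members of the chromosome 9 run led in different cells, as given below.

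The gated classes held their own markers, which follows in part from the gating. Cd3e, Cdh5 and S100a9 are on the lists that define the T cell, endothelial and neutrophil gates. Cd3e, a chain of the T cell receptor complex, had a UMI in 95.8% of gated T cells of library 1 and 94.99% of library 2, against 8.95% and 9.17% of gated NK cells and 1.55% and 3.97% of gated neutrophils. Cdh5, an endothelial adhesion protein, was seen in 92.9% and 92.5% of gated endothelial cells, while Ptprc, the gene of CD45, was seen in only 19.3% and 32.1% of them, against 92.1% and 90.0% of neutrophils. The neutrophil gene S100a9 had a UMI in 98.8% and 99.2% of gated neutrophils, but also in 37.5% and 44.5% of macrophages, 33.4% and 40.7% of B cells and 35.8% and 42.9% of NK cells. Gated cells numbered 879 and 1836 B cells, 1375 and 2192 NK cells, 2311 and 3733 T cells, 4330 and 1841 neutrophils, 870 and 456 classical monocytes, 516 and 1010 non-classical monocytes, 2251 and 1955 macrophages and 140 and 53 endothelial cells. Thymocyte-like cells with Rag1, Rag2, Dntt or Ptcra numbered 0 and 766.

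Levels are CPM, the UMIs of a gene per 1000000 UMIs summed over a class. Paired values stand for library 1 and then library 2, and square brackets hold exact 95% Poisson intervals of a level, or exact binomial intervals of a share, which cover counting error only. The leading class of a receptor is the class with its highest CPM among classes of 50 or more cells. This class was the same in both libraries for 21 of the 25 receptors: NK cells for 6, neutrophils for 6, T cells for 4, endothelial cells for 3, macrophages for 1 and classical monocytes for 1. In 10 of them the interval of the leading class lay apart from that of the next class in both libraries. In 8 classes with 50 or more cells in both libraries, 5 receptors (Il10rb, Il17ra, Il2rg, Il3ra and Il4r) reached 10 CPM in every class of both libraries, and 8 receptors (Il12rb1, Il15ra, Il17rb, Il17rc, Il1rl1, Il22ra2, Il23r and Il9r) reached it in no class of both.

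**Figure D1:**
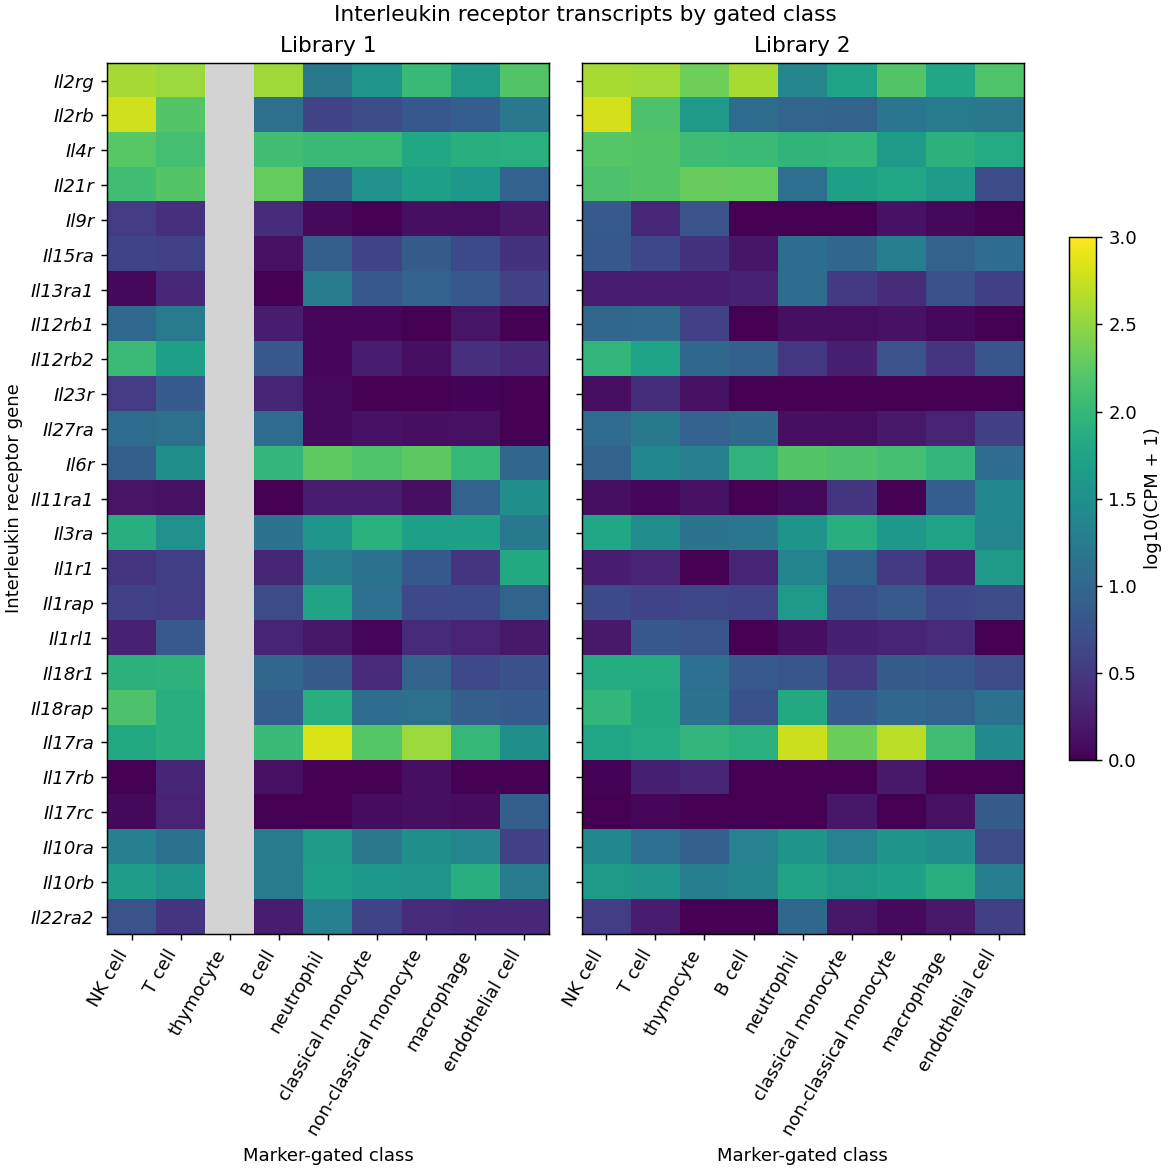
Level of the 25 receptors (rows, by family) in 9 gated classes (columns) of library 1 and library 2, coloured by log10(CPM + 1); grey marks thymocytes in library 1, which held 0 cells. Il2rb stands out in NK cells at 608 and 633 CPM, Il17ra in neutrophils at 670.3 and 589 CPM, and Il2rg across lymphocytes.

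The common gamma chain Il2rg, shared by receptors such as those for IL-2, IL-4, IL-9, IL-15 and IL-21, marked every lymphocyte class. It stood at 393 CPM [378, 408] and 407 CPM [396, 419] of NK cells. Gated B cells held 369.6 CPM [348, 393] and 405 CPM [388, 422]. T cells followed at 352 and 384 CPM, so these 3 classes lay close together, while thymocyte-like cells of library 2 were lower at 216 CPM. Myeloid levels were far lower, with 104 and 152 CPM in non-classical monocytes, 40.5 and 61.97 in macrophages, 35.3 and 53.8 in classical monocytes and 14.8 and 23.2 in neutrophils. Endothelial gated cells carried 154 and 147 CPM, above all myeloid classes in library 1 but not in library 2, where non-classical monocytes were at the same level.

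Il2rb, the beta chain through which IL-2 and IL-15 signal, was concentrated in NK cells at 608 CPM [589, 627] and 633 CPM [619, 647]. T cells had 155 CPM [149, 162] and 145 CPM [140.1, 150.2], and the intervals of these 2 classes lay far apart. B cells held only 11.7 and 10.4 CPM and neutrophils 3.08 and 8.53 CPM. With every cell thinned to 1500 UMIs, to make cells of unequal depth comparable, an Il2rb UMI was seen in 58.8% [56.2, 61.5] and 59.7% [57.6, 61.8] of NK cells. The same share was 20.3% and 16.6% in T cells and 0.276% and 0.663% in neutrophils. The part of other cells' transcripts in the neutrophil share was not tested. Median depths before thinning were 4413 and 4795.5 UMIs in NK cells and 2215 and 2506 in neutrophils. Thinning left out 794 and 965 shallower cells over all classes.

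**Figure D2:**
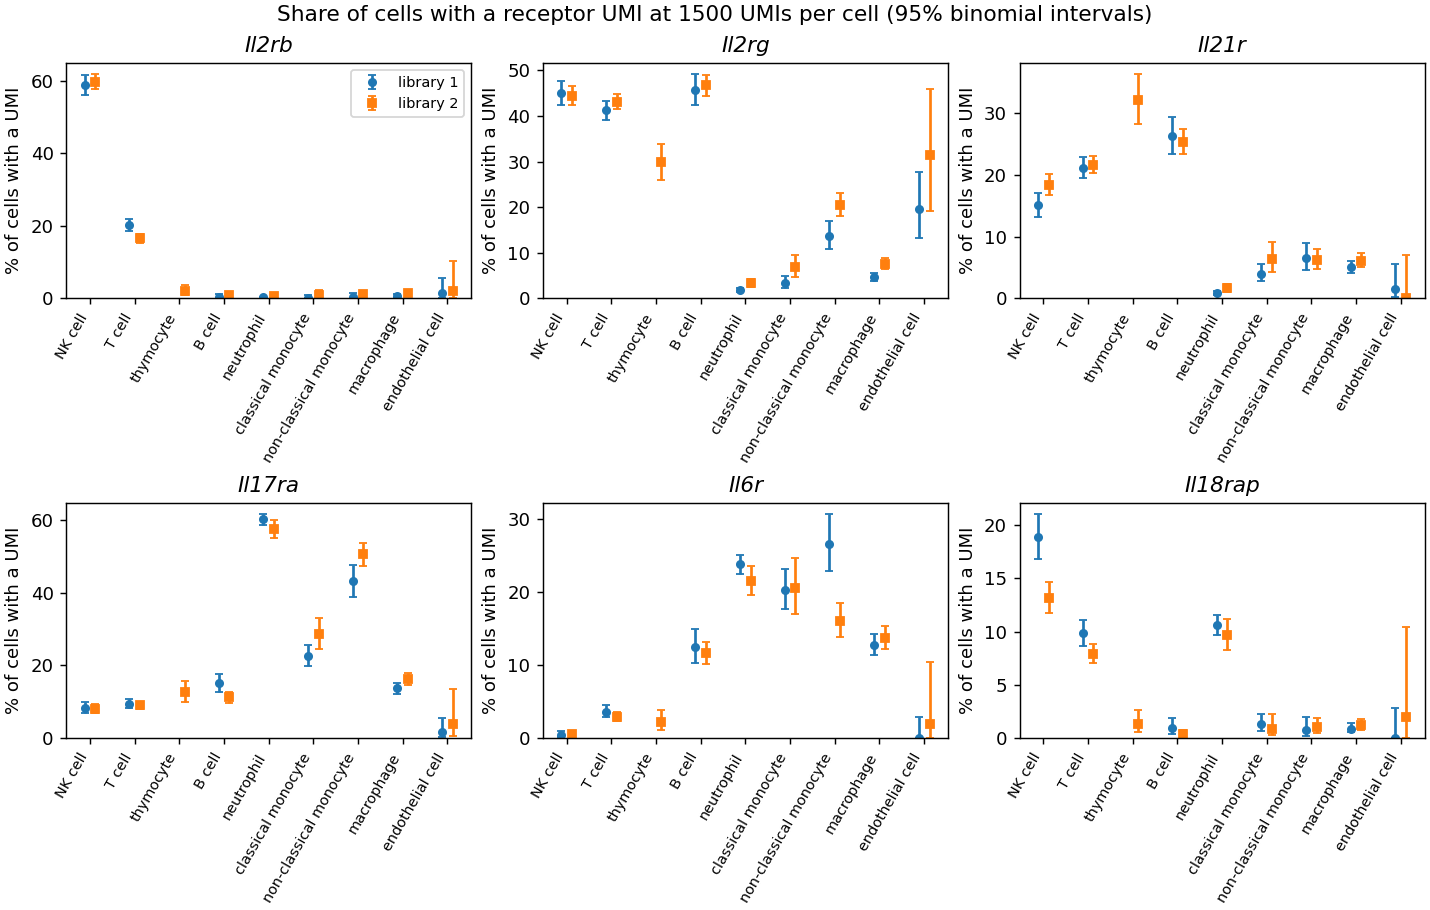
Share of cells with at least 1 UMI of 6 receptors at 1500 UMIs per cell in each gated class, with 95% exact binomial intervals, for library 1 (circles) and library 2 (squares). Il2rb peaks in NK cells at 58.8% and 59.7%, and Il17ra in neutrophils at 60.2% and 57.6%. Il18rap is seen in NK cells, T cells and neutrophils.

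Il4r, the IL-4 binding chain, was present in all 8 classes. NK cells had 165 CPM [155, 175] and 160.4 CPM [153, 168]. T cells came next with 126 CPM [120.1, 132] and 158 CPM [152, 163] and overlapped NK cells in library 2. Neutrophils held 106 and 90.9 CPM and the lowest class, non-classical monocytes, 60.4 and 42.4 CPM. With the sums scaled by the trimmed mean of M-values (TMM) in place of the class total, neutrophils led for Il4r in both libraries.

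Il21r, the IL-21 binding chain, was highest in B cells and thymocyte-like cells. B cells carried 194 CPM [178, 211] and 192 CPM [181, 204], and the thymocyte-like cells of library 2 carried 199.9 CPM [184, 217], which overlapped B cells. T cells had 157 and 158 CPM and NK cells 120.2 and 144 CPM. Macrophages held 38.7 and 42.9 CPM, classical monocytes 33.3 and 49.1 CPM and neutrophils 8.85 and 11.6 CPM. At 1500 UMIs, 26.2% and 25.3% of B cells and 32.1% of the thymocyte-like cells had an Il21r UMI, against 0.903% and 1.63% of neutrophils. Median depths were 2927 and 2808.5 UMIs in B cells and 1736.5 in the thymocyte-like cells.

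The remaining members read beside the gamma chain, Il9r, Il15ra and Il13ra1, were scarce. The IL-7 receptor gene Il7r was not among the symbols found by the rule. Il2ra was left out, so neither gene is covered here. Il9r, the IL-9 binding chain, had 16 and 73 UMIs in NK cells, or 2.37 CPM [1.35, 3.84] and 6.08 CPM [4.76, 7.64]. T cells had 1.54 CPM [0.967, 2.34] and 1.23 CPM [0.809, 1.79], and thymocyte-like cells 4.88 CPM in library 2, below NK cells with overlapping intervals. Il15ra, which presents IL-15 to neighbouring cells, was led by myeloid classes that differed between libraries. Neutrophils had 7.02 CPM [5.50, 8.83] and 11.1 CPM [8.56, 14.1]. Non-classical monocytes had 6.75 CPM [4.18, 10.3] and 18.1 CPM [14.6, 22.3]. The levels overlapped in library 1, where non-classical monocytes led under 3 of the alternative settings. T cells had 2.95 CPM [2.12, 3.98] and 3.50 CPM [2.76, 4.37] and NK cells 3.10 CPM [1.92, 4.75] and 5.66 CPM [4.40, 7.18], each overlapping classical monocytes and macrophages in library 1. Endothelial cells had 3 and 8 UMIs. Il13ra1, which joins Il4r in the type II receptor for IL-4 and IL-13, was highest in neutrophils at 16.3 CPM [13.9, 18.9] and 10.7 CPM [8.26, 13.7]. Non-classical monocytes held 7.71 CPM [4.94, 11.5] and 1.43 CPM [0.573, 2.94], and macrophages, the second class of library 2, 5.73 CPM [4.63, 7.003] and 4.68 CPM [3.61, 5.98].

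The IL-12 group was a lymphocyte group. Il12rb2, the signalling chain of the IL-12 receptor, stood at 109 CPM [102, 117] and 92.6 CPM [87.2, 98.2] of NK cells. T cells had 51.2 CPM [47.5, 55.003] and 53.4 CPM [50.4, 56.5]. All other classes of 50 or more gated cells were below 10 CPM, and the thymocyte-like cells held 9.05 CPM. Il12rb1, the chain shared by the IL-12 and IL-23 receptors, was led by T cells at 15.7 CPM [13.7, 17.9] and 9.91 CPM [8.64, 11.3], with NK cells at 9.46 CPM [7.29, 12.1] and 9.33 CPM [7.68, 11.2]. In library 2 the 2 classes overlapped. Il27ra, the IL-27 binding chain, was also led by T cells, at 11.8 CPM [10.1, 13.7] and 15.4 CPM [13.8, 17.1]. NK cells held 10.5 CPM [8.20, 13.2] and 10.2 CPM [8.51, 12.2], and B cells 10.2 and 9.83 CPM, while neutrophils had 0.192 and 0.341 CPM.

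Il23r, the IL-23 binding chain, had 90 and 32 UMIs in T cells, or 6.31 CPM [5.08, 7.76] and 1.45 CPM [0.995, 2.05]. NK cells had 2.37 CPM [1.35, 3.84] and 0.333 CPM [0.0908, 0.853], and thymocyte-like cells 0.348 CPM in library 2. T cells with Foxp3, the master factor of regulatory T cells, held 11 and 1 of its UMIs, T cells with Cd8a or Cd8b 14 and 17, and the other T cells 65 and 14. The level in Foxp3 cells, the highest of these subsets in library 1, was 27.2 CPM [13.6, 48.7] and 1.15 CPM [0.0292, 6.42]. In the other T cells it was 14.1 CPM [10.9, 18.02] and 2.32 CPM [1.27, 3.90], overlapping Foxp3 cells in both libraries. The level of these other T cells was lower in library 2 than in library 1. Cd8 cells had 1.51 and 1.13 CPM, with intervals that overlapped between the libraries. In library 1 the Cd8 level lay below the intervals of both other subsets.

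The gp130-linked chains Il6r and Il11ra1 and the IL-3 chain Il3ra were led by myeloid or endothelial cells. Il27ra, also linked to gp130, was led by T cells, as given above. Il6r, the IL-6 binding chain, was highest in neutrophils at 179 CPM [171, 187] and 156 CPM [146, 166]. Non-classical monocytes followed with 176 CPM [161, 191] and 127 CPM [117, 137], overlapping neutrophils in library 1 only, where they led under 4 of the alternative settings. Classical monocytes, the second class of library 2, held 148 CPM [139.7, 157] and 145 CPM [132, 158], overlapping neutrophils there. Further down came macrophages at 99.98 and 94.3 CPM and B cells at 95.4 and 89.3 CPM, against 7.10 and 7.99 CPM in NK cells. At 1500 UMIs, 23.8% and 21.5% of neutrophils and 12.5% and 11.6% of B cells had an Il6r UMI. The share was 0.444% and 0.557% in NK cells, which are deeper, and the part of other cells' transcripts in it was not tested. Among lymphocytes, then, Il6r was high in B cells and low in NK cells.

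Il11ra1, the IL-11 binding chain, was led by endothelial gated cells, with 51 and 18 UMIs or 30.2 CPM [22.5, 39.7] and 24.01 CPM [14.2, 37.9]. Macrophages had 7.72 CPM [6.44, 9.18] and 6.95 CPM [5.62, 8.50] and, being many more cells, held 54.5% and 66.9% of all its UMIs. With cells thinned to 1500 UMIs, endothelial cells of library 2 held none and macrophages led there. The small fibroblast gate of 16 and 7 cells held 95.7 CPM [56.7, 151] and 84.4 CPM [40.5, 155]. B cells had none in either library. Il3ra, the IL-3 binding chain, was led by classical monocytes at 81.4 CPM [75.02, 88.2] and 77.98 CPM [69.1, 87.7]. NK cells came next in both libraries at 74.1 CPM [67.7, 80.8] and 59.3 CPM [55.02, 63.8], overlapping classical monocytes in library 1. Macrophages had 49.1 and 53.1 CPM and B cells held 13.1 and 14.04 CPM.

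The receptors of the IL-1 family separated into a neutrophil, an endothelial and a lymphocyte pattern. Il1r1, the signalling receptor for IL-1, was highest in endothelial gated cells at 65.04 CPM [53.5, 78.4] and 40.02 CPM [26.999, 57.1]. Neutrophils had 18.3 CPM [15.8, 21.1] and 21.3 CPM [17.7, 25.4] and, as the larger class, held 35.1% and 48.8% of its UMIs. In library 2 neutrophils led under TMM scaling, and the endothelial level was 91.5 CPM with thinned cells. Il1rap, the accessory chain that Il1r1, Il1rl1 and other members share, was a neutrophil gene at 55.1 CPM [50.7, 59.8] and 39.4 CPM [34.5, 44.8]. Classical monocytes held 11.4 CPM [9.05, 14.1] and 4.72 CPM [2.75, 7.55], non-classical monocytes 3.54 and 5.91 CPM and T cells 2.53 and 3.04 CPM. The neutrophil marker list summed to 8278 and 2978 CPM in classical monocytes, higher in library 1 as were Il1rap and Il1r1 there, and its part was not tested.

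Il1rl1 (ST2), the receptor for IL-33, was led by T cells, with 84 and 127 UMIs or 5.89 CPM [4.70, 7.30] and 5.77 CPM [4.81, 6.87], which lay in 128 T cells. Thymocyte-like cells of library 2 had 5.22 CPM, which overlapped T cells, and non-classical monocytes, second in library 1, 1.29 and 1.02 CPM. Inside the T cell gate its level was highest in cells with Foxp3, which held 29 and 58 of its UMIs, or 71.7 CPM [48.02, 103] and 66.8 CPM [50.7, 86.4]. T cells with Cd8 had 2.59 and 1.99 CPM and those with none of the subset markers 6.74 and 6.47 CPM. Outside the T cells, the gate for group 2 innate lymphoid cells (ILC2) held 332 CPM [186, 547] and 338 CPM [212, 511], and the gate for mast cells or basophils 144 CPM [78.8, 242] and 229.9 CPM [122, 393]. These gates were small, with 6 and 10 cells and 13 and 10 cells. Gata3, a factor of type 2 lymphocytes that is itself one of the gate's markers, was seen in all 16 ILC2 gated cells, and Cd3d in 1.

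Il18r1, the IL-18 binding chain, was shared evenly by T cells at 86.02 CPM [81.3, 90.98] and 69.7 CPM [66.3, 73.3] and NK cells at 84.4 CPM [77.6, 91.6] and 70.03 CPM [65.4, 74.9]. Their order turned between the libraries and the intervals overlapped. Classical monocytes had 1.37 and 2.22 CPM, and the small ILC2 gate 309.5 and 429.8 CPM. Its accessory chain Il18rap was led by NK cells at 146 CPM [137, 156] and 95.7 CPM [90.2, 101]. Neutrophils held 77.8 CPM [72.5, 83.3] and 65.2 CPM [58.8, 72.03], as much as T cells at 75.6 and 65.3 CPM. Neutrophil Il18r1, by contrast, was 6.73 and 5.29 CPM, far below the T cell level of that gene. The neutrophil level of Il18rap rose enough under TMM scaling for neutrophils to lead in both libraries, and 10.6% and 9.65% of neutrophils had an Il18rap UMI at 1500 UMIs, against 0.945% and 0.334% of B cells.

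In the IL-17 receptor family, Il17ra, the chain that all its receptors share, was led by neutrophils at 670.3 CPM [655, 686] and 589 CPM [569, 609]. Non-classical monocytes followed at 349 CPM [329, 370.5] and 484 CPM [465, 504], and classical monocytes held 161 and 209.8 CPM. Macrophages had 98.9 and 118 CPM, T cells 75.6 and 66.9 CPM, NK cells 65.5 and 58.1 CPM and endothelial cells 30.2 and 25.3 CPM. The order neutrophil, non-classical monocyte, classical monocyte, macrophage held in both libraries with intervals apart at each step. At 1500 UMIs the share of cells with an Il17ra UMI was 60.2% [58.6, 61.7] and 57.6% [55.2, 59.99] in neutrophils, against 8.29% and 8.08% in NK cells.

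Il17rb, the IL-25 binding chain, had its highest level in 1 small gate. The ILC2 gate held 14 and 12 of them, or 309.5 CPM [169, 519] and 184 CPM [95.2, 322], and its 6 and 10 cells accounted for 28.0% and 32.4% of all Il17rb UMIs of kept cells. These 26 UMIs lay in 11 of the 16 cells, with at most 10 in 1 cell. T cells, the leading class of 50 or more cells in library 1, held 16 and 18 UMIs, or 1.12 CPM [0.642, 1.82] and 0.818 CPM [0.485, 1.29], and the level of library 1 was 0.561 CPM with a minimum of 2 markers and 0.494 CPM with 4. Thymocyte-like cells led in library 2 at 1.04 CPM from 3 UMIs, overlapping T cells. Il17rc, which pairs with Il17ra for IL-17A, had 12 and 5 UMIs in endothelial gated cells, or 7.10 CPM [3.67, 12.4] and 6.67 CPM [2.17, 15.6], and 13.1 CPM in library 2 with thinned cells. T cells had 0.912 and 0.0909 CPM. Classical monocytes had 0.274 and 0.555 CPM and neutrophils none in either library.

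The IL-10 receptor family was led by myeloid cells. Il10ra, the IL-10 binding chain, was highest in neutrophils at 39.6 CPM [35.9, 43.6] and 34.97 CPM [30.3, 40.1]. Non-classical monocytes had 30.5 CPM [24.7, 37.3] and 34.4 CPM [29.4, 40.02], overlapping neutrophils in both libraries, and macrophages 22.1 and 28.6 CPM. Il10rb, the chain shared by the receptors for IL-10, IL-22 and others, was led by macrophages at 76.8 CPM [72.6, 81.1] and 76.8 CPM [72.2, 81.6]. Neutrophils came second at 51.5 CPM [47.3, 56.1] and 56.1 CPM [50.2, 62.5], and first in both libraries under TMM scaling. Il22ra2, which encodes a soluble IL-22 binding protein rather than a receptor on the cell, was a neutrophil gene with 209 and 54 UMIs or 20.1 CPM [17.5, 23.01] and 9.21 CPM [6.92, 12.02]. NK cells held 4.88 CPM [3.36, 6.85] and 2.50 CPM [1.69, 3.57], and endothelial gated cells 2 UMIs in each library.

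The T cell gate was split into 65 and 120 cells with Foxp3, 1392 and 2399 further cells with Cd8a or Cd8b, and 854 and 1214 others. Il2rg was highest in the Foxp3 cells at 428 CPM [366, 496] and 581 CPM [531, 634], against 351 CPM [339, 364] and 387 CPM [377, 397] in Cd8 cells and 347 CPM [331, 365] and 349.8 CPM [335, 365] in the others, with intervals apart in both libraries. Il2rb was also highest in the Foxp3 cells at 237 CPM [192, 289.9] and 206 CPM [177, 239], with 181 CPM [172, 189.8] and 174 CPM [167, 181] in Cd8 cells, which they overlapped in library 2, and 97.2 and 63.6 CPM in the others. The IL-12 receptor chain Il12rb2 was highest in Cd8 cells at 60.5 CPM [55.6, 65.8] and 66.7 CPM [62.7, 70.96], with 36.1 CPM [30.8, 42.03] and 25.6 CPM [21.7, 29.9] in the others and 7.42 and 14.98 CPM in Foxp3 cells. Il12rb1 stood at 17.1 CPM [14.5, 19.96] and 11.6 CPM [9.99, 13.5] in Cd8 cells and 13.7 CPM [10.5, 17.5] and 6.31 CPM [4.46, 8.65] in the others, overlapping in library 1, and at 3 and 4 UMIs in Foxp3 cells.

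Il6r was highest in Foxp3 cells at 84.1 CPM [58.2, 117] and 54.1 CPM [39.8, 72.003], against 37.4 CPM [32.03, 43.4] and 35.2 CPM [30.6, 40.2] in the others, overlapping in library 2 only, and 24.9 and 18.3 CPM in Cd8 cells. Il4r was lowest in Cd8 cells at 111 CPM [105, 118] and 132 CPM [126, 137], with 183 and 209 CPM in Foxp3 cells and 149.8 and 215 CPM in the others. Il18rap was highest in Cd8 cells at 86.5 CPM [80.6, 92.7] and 83.1 CPM [78.6, 87.9], against 56.98 CPM [50.3, 64.3] and 26.4 CPM [22.4, 30.8] in the others and 37.1 and 25.3 CPM in Foxp3 cells. Il18r1 in Foxp3 cells was 64.3 CPM [41.996, 94.2] and 127 CPM [104, 153], against 91.4 and 72.1 CPM in Cd8 cells, with overlapping intervals in library 1 and a higher Foxp3 level in library 2. Il21r was nearly level over the subsets, with 161 and 153 CPM in Foxp3 cells, 158 and 156 CPM in Cd8 cells and 155 and 164 CPM in the others.

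**Figure D3:**
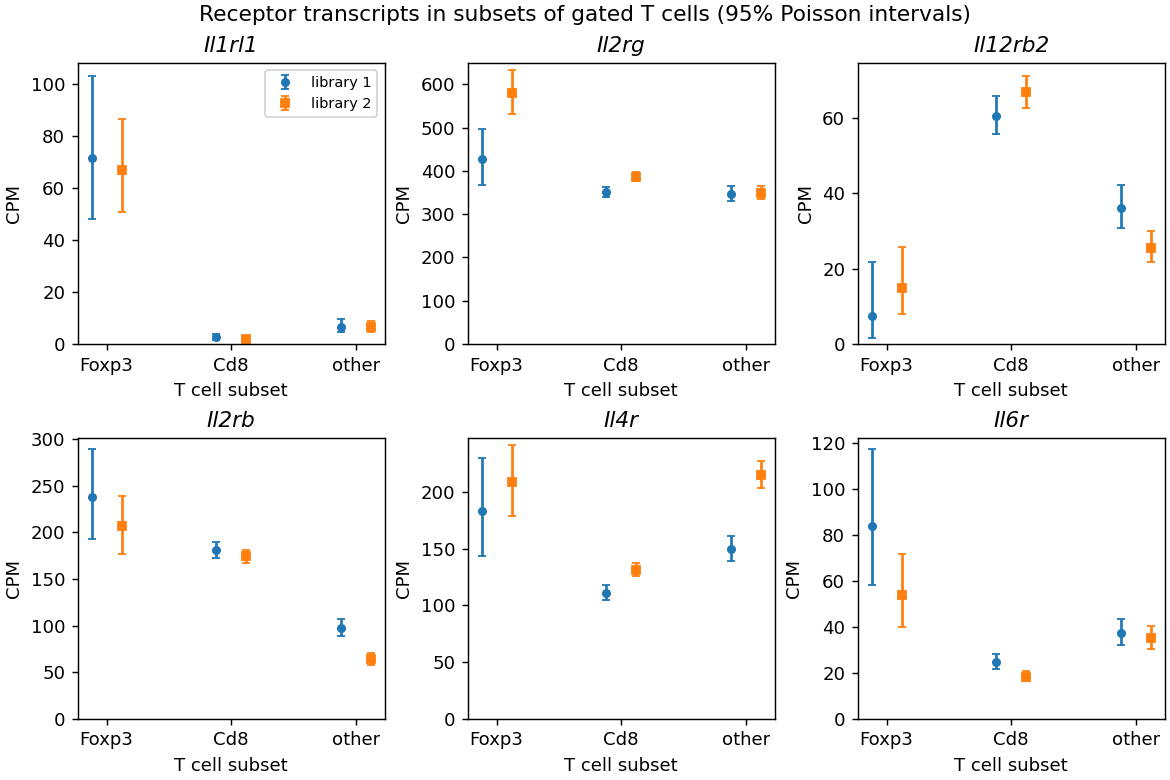
CPM of 6 receptors in gated T cells with Foxp3, with Cd8a or Cd8b, or with none of these, with 95% Poisson intervals, for library 1 (circles) and library 2 (squares). Il1rl1 is high in Foxp3 cells (71.7 and 66.8 CPM), Il2rg highest there too (428 and 581 CPM) and Il12rb2 in Cd8 cells (60.5 and 66.7 CPM).

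Macrophages were split into resident-like cells with at least 2 of Lyve1, Folr2 and Cd163 (779 and 479 cells), cells with at least 3 of Spp1, Gpnmb, Fabp5 and Trem2 (920 and 735 cells) and others (552 and 741). Il4r was lower in the Spp1 group, at 53.99 CPM [48.7, 59.7] and 75.8 CPM [69.02, 83.1], than in the resident-like group, at 97.2 CPM [90.04, 105] and 92.5 CPM [83.3, 102]. Il10rb was 82.4 and 89.8 CPM in the Spp1 group and 61.5 and 61.2 CPM in the other macrophages. Il10ra went the other way, with 19.96 and 23.5 CPM in the Spp1 group, 20.7 and 23.3 CPM in the resident-like group and 31.9 and 42.7 CPM in the others. The other macrophages were shallower, with a median of 4610 UMIs against 7503 in the Spp1 group.

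Whether a class held both chains of a receptor was read at 10 CPM for each chain in both libraries. Only classes of 50 or more cells were read, so small gates such as the ILC2 and fibroblast gates are not covered. All 8 classes passed for the type I IL-4 receptor (Il4r with Il2rg), and 7 for the IL-10 receptor, endothelial cells being the exception. The IL-21 receptor (Il21r with Il2rg) passed in 6 classes, and the IL-2 and IL-15 beta and gamma pair in 4: B, NK, T and endothelial cells. B cells passed close to the cut, with Il2rb at 11.7 and 10.4 CPM from 33 and 59 UMIs, which lay in 56 cells. In endothelial gated cells, Il2rb rested on 36 UMIs in 10 cells, with 9 in 1 cell. The NK cell markers summed to 143 and 127 CPM there and the T cell markers to 40.8 and 103 CPM, and their part was not tested. The IL-3 receptor (Il3ra with Csf2rb) passed in the 4 myeloid classes of classical and non-classical monocytes, macrophages and neutrophils. The IL-18 receptor passed in NK and T cells, the IL-1 receptor and the type II IL-4 receptor in neutrophils only, and the IL-11 receptor (with Il6st, gp130) in endothelial cells only.

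No class of 50 or more cells passed in both libraries for the receptors of IL-6, IL-9, IL-12, IL-17A, IL-23, IL-25, IL-27 or IL-33. The IL-6 signalling chain Il6st was led by endothelial gated cells at 102 and 96.0 CPM, where Il6r stood at 8.87 CPM [4.96, 14.6] and 10.7 CPM [4.61, 21.03]. Il6st was below 10 CPM in the myeloid classes that held Il6r, at 1.73 and 1.19 CPM in neutrophils, 1.61 and 2.44 in non-classical monocytes, 6.84 and 3.33 in classical monocytes and 4.46 and 4.76 in macrophages. Endothelial cells passed for IL-6 in library 2, and T cells passed for IL-12 in library 1. For IL-12, Il12rb1 fell just under the cut, at 9.91 CPM in T cells of library 2 and 9.46 and 9.33 CPM in NK cells. These intervals all spanned 10 CPM. Detection of both chains in 1 cell was frequent where both were abundant: at 1500 UMIs, 26.6% and 26.9% of NK cells had UMIs of both Il2rb and Il2rg, against 9.14% and 7.96% of T cells and 0 and 0.0603% of neutrophils. For the IL-1 receptor, only 0.226% and 0.181% of neutrophils had UMIs of both Il1r1 and Il1rap at this depth.

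Levels in the 2 libraries were compared in 7 classes with 200 or more cells in each, for the 106 pairs of a receptor and a class with at least 50 UMIs. On the log2(CPM + 10) scale, which understates the change of low genes, 0 of the 106 pairs were 2-fold apart, where 0.783% of 61409 pairs of any gene and class were. Of the receptor pairs, 53 were higher in library 2 and 53 in library 1. The median difference, library 2 over library 1, was -0.0045 for the receptors and 0.0025 for all genes, and the receptors ranged from -0.65 (Il22ra2 in neutrophils) to 0.75 (Il15ra in non-classical monocytes). Poisson intervals lay apart for 43 of the 106 pairs, against 22.6% of all pairs, which were not matched to the receptors on their counts. In neutrophils 9 of 16 pairs lay apart (29.0% of all genes there), in T cells 10 of 19 (25.2%) and in non-classical monocytes 7 of 12 (24.7%). The counts were nearer to the background in NK cells with 6 of 18 (20.1%), classical monocytes with 5 of 13 (20.8%), macrophages with 5 of 16 (27.6%) and B cells with 1 of 12 (10.0%). With a pseudocount of 1 CPM, 9 of the 106 pairs were 2-fold apart, against 2.59% of all pairs, and they are named in the closing section. TMM scaling shifted the difference of all genes by -0.11 on the log2 scale in classical monocytes and by less than 0.1 in the other 6 classes.

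**Figure D4:**
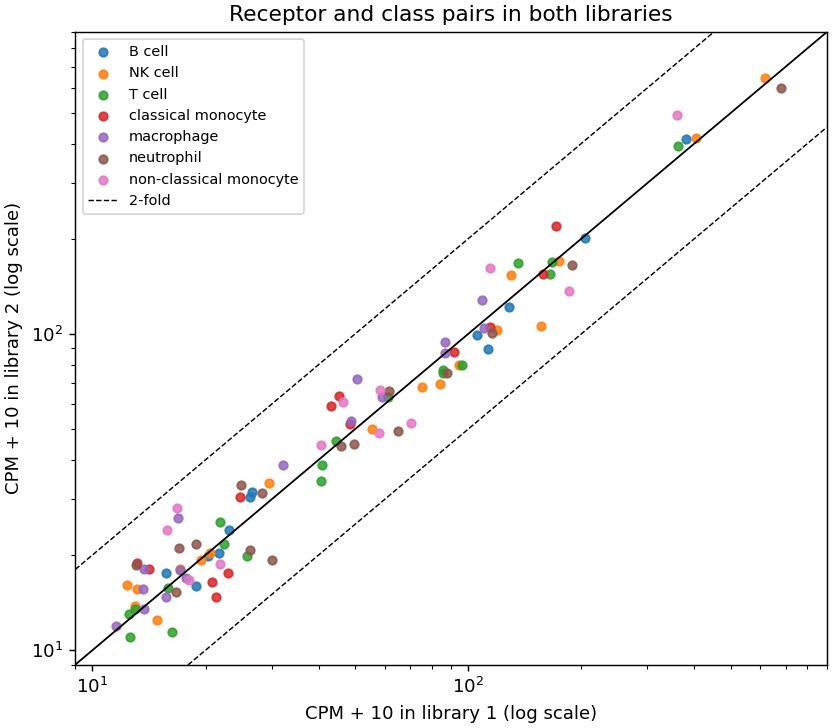
CPM + 10 of each of the 106 receptor and class pairs in library 1 (horizontal, log scale) and library 2 (vertical, log scale), coloured by class, with lines of equality and of a 2-fold difference. All 106 points lie between the 2-fold lines.

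In the myeloid classes, Il2rg and Il2rb, which NK cells led, stood higher in library 2. Il2rg was 40.5 and 61.97 CPM in macrophages, 104 and 152 in non-classical monocytes, 35.3 and 53.8 in classical monocytes and 14.8 and 23.2 in neutrophils, with intervals apart in each. Il2rb was 6.93 and 16.2 CPM in macrophages, 5.79 and 14.1 in non-classical monocytes and 3.08 and 8.53 in neutrophils, also with intervals apart, and 4.11 and 8.05 in classical monocytes, where they overlapped. Beside this, the 11 measured NK cell markers summed to 62.5 and 120 CPM in macrophages and 118 and 159 in non-classical monocytes. In neutrophils they summed to 122 and 207 CPM and in classical monocytes to 56.7 and 104 CPM. In this order of classes, 9, 8, 10 and 8 of the 11 were higher in library 2. Klrb1a, 1 of the 11, had a UMI in 15.2% and 26.6% of neutrophils and 18.0% and 27.0% of classical monocytes. The share was 22.3% and 14.9% in non-classical monocytes, 4.93% and 7.06% in macrophages and 2.62% and 3.59% in B cells. Whether the myeloid cells make Klrb1a themselves was not tested. The 12 T cell markers summed to 92.2 and 143 CPM in macrophages, 81.6 and 178 in non-classical monocytes and 50.4 and 89.4 in neutrophils. Of the 12 markers, 10, 9 and 10 were higher in library 2. In classical monocytes they were nearly level at 50.2 and 53.0 CPM, with 7 of 12 higher. No NK or T cell marker was at 0 in macrophages of either library, and the part of these markers in the receptor levels was not tested.

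Il15ra was also higher in library 2, at 3.68 and 8.05 CPM in macrophages and 3.15 and 8.88 CPM in classical monocytes, with intervals apart. In the lymphocytes, Il18rap was lower in library 2 in NK cells (146 and 95.7 CPM), and Il12rb1 was lower there in T cells (15.7 and 9.91 CPM). The neutrophil markers summed to 829 and 415 CPM in NK cells and to 934 and 396 CPM in T cells, and the fibroblast markers to 166 and 1.58 CPM in NK cells, and their part was not tested. Il1rap (55.1 and 39.4 CPM) and Il22ra2 (20.1 and 9.21 CPM) were lower in neutrophils of library 2.

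Of the rest of the pathway, 34 of 35 listed interleukins were measured, and 7 reached 10 CPM in their leading class in both libraries. Il1b was the most abundant of these at 6686 and 5441 CPM in neutrophils, the class that led for Il1rap. Il18 was led by macrophages at 219 and 241 CPM, whereas its receptor chains were led by NK and T cells. Il17a was led by T cells at 46.2 and 13.7 CPM, and Il16 by B cells in library 1 at 52.3 CPM and by thymocyte-like cells in library 2 at 51.5 CPM. Il33, the ligand of Il1rl1, was led by endothelial gated cells at 19.5 and 29.3 CPM, and was named after its values were seen.

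Chains outside the naming rule were measured for 9 of 9 genes, and 8 reached 10 CPM. Csf2ra, the GM-CSF binding chain, was led by macrophages in library 1 at 368 CPM and by classical monocytes in library 2 at 385 CPM. Crlf2, the TSLP receptor chain, was led by classical monocytes at 199 and 180.1 CPM, and Csf2rb by neutrophils at 55.4 and 53.2 CPM.

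Of the Janus kinases and STATs, all 10 measured members reached 10 CPM in their leading class. Jak1, a kinase of many interleukin receptors, was led by NK cells in library 1 at 495 CPM and by thymocyte-like cells in library 2 at 824 CPM. NK cells led for Stat4, which acts below the IL-12 receptor, at 349 and 330.2 CPM, and for Stat3, which acts below the IL-6 and IL-10 receptors, at 302 and 310.3 CPM. Jak2 was led by T cells at 269 and 184 CPM. Jak3, the kinase that binds the common gamma chain, was led by NK cells at 81.0 and 74.0 CPM and was named after its values were seen. All 4 feedback inhibitors reached 10 CPM, with Socs1 (252 and 379 CPM) and Cish (49.4 and 63.7 CPM) led by NK cells, and Socs3 (59.1 and 64.0 CPM) and Socs2 (49.1 and 56.0 CPM) by endothelial cells. Of the adaptors of the IL-1 and IL-17 receptors, 8 of 8 reached it, with Myd88 led by neutrophils at 213 and 288 CPM, Irak2 by NK cells at 142 and 144 CPM, and Irak3 (120.1 and 113 CPM) and Traf6 (86.2 and 73.4 CPM) by B cells.

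The 12 members below 50 UMIs were Il17re (38 UMIs, the highest of them), Il17rd (30), Il1rl2 (25), Il5ra (17), Il20rb (10), Il13ra2 (6), Il31ra (5), Il1rapl1 (3), Il36rn (3), Il20ra (1), Il1rapl2 (0) and Il22ra1 (0). Il17rc, at 62 UMIs, was the lowest member above the minimum. Il36rn matches the rule by its spelling only, since it encodes a soluble antagonist of the IL-36 receptor. At this depth, the absence of UMIs of Il1rapl2 and Il22ra1 says only that neither was detectable in these cells.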

How the data were processed

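The deposited matrix holds UMI counts per gene and barcode of both samples, which the authors made with Cell Ranger 4.0.0, as its header says. Its genome build, like its annotation, was not given in the sources used here. A deposited table of 33756 barcodes shared 111 with the matrix and was not used. Barcodes under 200 genes or over 20% mitochondrial UMIs, 315 and 235, were left out. Doublets called by Scrublet (scanpy 1.11.5, expected share 8%) were left out, 634 (4.54%) and 997 (6.46%). Each cell took the marker list with the highest share of measured members holding a UMI, with at least 3 such markers, and ties stayed ungated. Thymocytes needed 2 of Rag1, Rag2, Dntt and Ptcra. Some T cell subsets are not reported here. Raw counts were summed per class and library and divided by the class total to CPM. Intervals are exact 95% Poisson or Clopper-Pearson intervals.

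The members, marker lists and pathway lists were chosen with earlier results of these data known. Each receptor with at least 50 UMIs is described, with values for its highest classes. Of each pathway list the 4 members with the highest CPM are named, and Il33 and Jak3 besides, taken from classes of 50 or more cells, a limit set after the smaller classes were seen. Shares were compared after thinning to 1500 UMIs. A fold of 2 on the log2(CPM + 10) scale was used between libraries, and 0 p-values were computed. The gating and fold steps were tested on simulated data. Alternatives were other marker minimums, doublets kept, TMM scaling (edgeR 4.0.16, R 4.3.3), thinned cells, a mitochondrial limit of 10%, other pseudocounts and UMI minimums, and a gate by Flt3 for dendritic cells added after seeing the data. Python 3.11.15, numpy 2.4.6, scipy 1.17.1, pandas 2.3.3 and matplotlib 3.10.9 were used.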

Additional observations from a re-analysis of the deposited data

How the results depend on the processing

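No paired analysis was possible because each group has 1 sample and no test was made. The number of receptors with at least 50 UMIs, 25, became 28 at a minimum of 20 UMIs and 22 at 200, and was 25 when only kept cells were counted. The number with the same leading class in both libraries, 21, ranged from 15 with thinned cells to 23 under TMM scaling. TMM scaling, whose factor for neutrophils was 0.524 and 0.527, raised all neutrophil levels and changed the leading class of 7 receptors in at least 1 library: Il10rb, Il15ra, Il18r1, Il18rap, Il1r1, Il21r and Il4r. Thinning changed it for 10, and each other setting for at most 2. The number of pairs 2-fold apart between libraries, 0 of 106, became 1 with called doublets kept (Il2rb in non-classical monocytes, 7.97 and 29.6 CPM, of 111 pairs) and 9 with a pseudocount of 1 CPM, where the share over all genes was 2.59%. These 9 were Il2rb in macrophages, neutrophils and non-classical monocytes, Il15ra in both monocyte classes, Il9r in NK cells, Il23r in T cells, Il1rap in classical monocytes and Il22ra2 in neutrophils. It was 0 under the other 7 settings. Of the 50 levels of leading classes, 29 left their interval under TMM scaling (0.747 to 1.91 times the value given), 18 with thinned cells (0 to 2.29 times), 4 with doublets kept and at most 1 under each of the other 4 settings, where Il17rb in T cells of library 1 fell to 0.500 times its value with a minimum of 2 markers and 0.440 times with 4. Receptors with few UMIs, small gates and transcripts of other cell types limit what these depths can show.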

Other observations

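Small gates also carried some of the receptors described above for the larger classes. Plasmacytoid dendritic cells (43 and 40 cells), which make type I interferon, held 160.1 CPM [122, 206] and 158 CPM [119, 205] of Il2rb, as much as T cells, and 16.3% and 10.8% of them had an Il2rb UMI at 1500 UMIs. Their Il21r level was 171 and 149 CPM. The 117 Il2rb UMIs of this gate over both libraries lay in 41 cells, with at most 12 in 1 cell. Cd3e was seen in 4 and 8 of the plasmacytoid dendritic gated cells. The part of T or NK cells in these Il2rb and Il21r levels was not tested. Mast cells or basophils (13 and 10 cells) held 329 CPM [225, 465] and 159 CPM [72.8, 302] of Il4r and 92.7 CPM [42.4, 176] and 301 CPM [175, 481] of Il3ra, the chain for a growth factor of these cells. Conventional dendritic cells passed the marker gate in only 38 and 34 cells. A wider gate on Flt3 with 1 other dendritic marker, added after seeing the data, took 178 and 117 cells with 139 CPM [124, 155] and 98.7 CPM [82.6, 117] of Il6r and 73.9 CPM [62.98, 86.2] and 67.3 CPM [54.1, 82.8] of Il21r. Those with Xcr1 or Clec9a, the cross-presenting type (31 and 23 cells), held 12.6 CPM [4.64, 27.5] and 29.9 CPM [14.3, 54.9] of Il2rg, against 83.3 CPM [70.2, 98.1] and 127 CPM [106, 151] in the others. Among ungated cells of library 1, 17 Il17rb UMIs lay in 7 cells, with 10 of them in 1 cell.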
